A study of Mus musculus with 4 samples.

Results

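Of 171490 regions of accessible chromatin pooled from 4 libraries of fetal γδ thymocytes, 24715 lay within 1 kb of either end of a protein-coding gene, and 357 of these (1.44%) were WT-only. A WT-only region overlapped a peak of both Maf WT libraries, WT 1 and WT 2, and no peak of either Maf KO library, KO 1 or KO 2. The regions were made by merging peaks that overlapped by 1 bp or more on chromosomes 1 to 19 and X, and gene ends came from RefSeq on GRCm38. Over all merged regions 3542 were WT-only (2.07%), so gene ends held 10.1% of them. The 357 regions marked 390 of the 14817 protein-coding genes with any region at an end (2.63%). The mirror-image rule, a peak in both KO libraries and neither WT library, gave 390 KO-only regions at gene ends (1.58%), which marked 416 genes (2.81%). Regions found in all 4 libraries numbered 16205 at gene ends. Because the presence and absence of peaks chose the WT-only regions, their peak values describe them and were not tested.

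The KO group was 2 libraries of Maf fl/fl Il7r-Cre fetuses and the WT group 2 libraries of Maf+/+ Il7r-Cre fetuses, so both genotypes carried Il7r-Cre, which deletes floxed DNA from lymphoid precursors onward. Fetuses of embryonic days 17 to 18 on a C57Bl/6 background, backcrossed for 5 generations, were pooled. From their thymi, cells without CD4 or CD8 and positive for CD3e, TCRgd and CD24, with low CD45RB, were sorted (15 to 17, in units of 1000), and Omni-ATAC libraries were amplified for 9 to 11 cycles. Nothing in the labels shows that a genotype's 2 libraries had separate pools as their source, so differences between WT 1 and WT 2 may be technical. The lists held 130935 and 120141 peaks in KO 1 and KO 2, and 102718 and 132179 in WT 1 and WT 2. Of 9 γδ T cell markers 8 matched the gene table, and all 8 had a peak at a gene end in every library, among them Cd3e, Sox13 and Blk. Of the markers of other blood cells, 2 of 4 B cell, 1 of 4 myeloid and 1 of 3 erythroid genes had a peak at an end in every library. The B cell gene Pax5, the myeloid genes Mpo, Csf1r and Lyz2 and the erythroid genes Gata1 and Hbb-bs had none in any library. Ends of 4 of 4 αβ thymocyte markers (Cd4, Cd8a, Cd8b1 and Themis) also had peaks in every library, as did 3 of 5 stromal markers in KO 1 and 4 of 5 in the other 3 libraries.

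ATAC-seq reads out where Tn5 transposase can reach DNA. At most active genes the widest accessible stretch covers the promoter at the gene start, while accessible sites just beyond it, in first introns or downstream of the 3′ end often belong to enhancers or to binding sites of single factors. c-Maf, the product of Maf, is a basic leucine zipper transcription factor that γδ T cells need to become IL-17 producers.

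Few WT-only regions lay on the promoter itself. In a RefSeq table of 32619 promoter windows of 300 bases (250 before the start and 50 after it, GRCm38.p6), 37 of 351 WT-only regions overlapped a window (10.5%). The share was 15.0% for KO-only regions (57 of 379) and 52.4% for regions of all 4 libraries (8291 of 15829). The last share is not a like measure. By the rule a WT-only or KO-only region cannot overlap a region of all 4 libraries. Median widths also differed, at 150 bp, 148 bp and 390 bp for WT-only, KO-only and shared regions. The windows shown are the 5 highest ranked protein-coding ones with at least 90 bases inside a WT-only region. They show promoter sequence that a WT-only region covers in part, with the bases inside the region in capitals, 5′ to 3′ on the gene's strand. The promoters as a whole were not WT-only. At Sptb, Zcchc3 and Lrrc15 a region of all 4 libraries lay at the same gene end, at gaps of 236, 111 and 679 bp. Sptb encodes the erythrocyte β-spectrin (chr12:76710498-76710797, minus strand), Rnf217 a ubiquitin ligase (chr10:31609676-31609975, minus strand), and Ifi47 a GTPase induced by interferon-γ (chr11:49076337-49076636, plus strand). Zcchc3 encodes a zinc knuckle protein that binds nucleic acids (chr2:152414995-152415294, minus strand), and Lrrc15 a leucine-rich repeat membrane protein (chr16:30283205-30283504, minus strand).
Sptb: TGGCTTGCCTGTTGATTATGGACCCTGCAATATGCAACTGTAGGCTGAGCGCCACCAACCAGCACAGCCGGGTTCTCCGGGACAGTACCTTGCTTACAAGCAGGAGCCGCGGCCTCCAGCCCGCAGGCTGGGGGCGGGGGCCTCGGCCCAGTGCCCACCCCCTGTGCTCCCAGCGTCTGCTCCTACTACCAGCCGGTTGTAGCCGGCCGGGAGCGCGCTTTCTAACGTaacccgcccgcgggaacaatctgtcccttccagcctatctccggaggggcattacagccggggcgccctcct
Rnf217: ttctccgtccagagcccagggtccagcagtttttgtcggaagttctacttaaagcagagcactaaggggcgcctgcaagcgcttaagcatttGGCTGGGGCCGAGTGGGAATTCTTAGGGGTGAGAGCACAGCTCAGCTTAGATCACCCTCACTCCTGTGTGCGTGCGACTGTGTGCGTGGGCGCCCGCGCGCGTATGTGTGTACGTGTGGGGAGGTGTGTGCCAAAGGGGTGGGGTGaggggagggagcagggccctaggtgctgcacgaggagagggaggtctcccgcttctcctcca
Ifi47: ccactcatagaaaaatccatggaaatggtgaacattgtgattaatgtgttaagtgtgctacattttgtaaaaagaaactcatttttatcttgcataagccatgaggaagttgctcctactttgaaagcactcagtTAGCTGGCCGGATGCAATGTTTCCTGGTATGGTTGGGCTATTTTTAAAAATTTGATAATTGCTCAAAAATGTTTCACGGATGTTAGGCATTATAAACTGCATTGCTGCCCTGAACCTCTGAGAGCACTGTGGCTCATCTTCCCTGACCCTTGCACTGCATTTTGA
Zcchc3: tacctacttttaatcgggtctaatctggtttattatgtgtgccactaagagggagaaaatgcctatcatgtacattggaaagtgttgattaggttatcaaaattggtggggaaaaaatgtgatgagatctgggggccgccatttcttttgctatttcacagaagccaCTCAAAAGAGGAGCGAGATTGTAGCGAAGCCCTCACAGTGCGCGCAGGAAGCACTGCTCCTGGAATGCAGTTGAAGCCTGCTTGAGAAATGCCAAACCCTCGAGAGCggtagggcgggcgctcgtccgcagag
Lrrc15: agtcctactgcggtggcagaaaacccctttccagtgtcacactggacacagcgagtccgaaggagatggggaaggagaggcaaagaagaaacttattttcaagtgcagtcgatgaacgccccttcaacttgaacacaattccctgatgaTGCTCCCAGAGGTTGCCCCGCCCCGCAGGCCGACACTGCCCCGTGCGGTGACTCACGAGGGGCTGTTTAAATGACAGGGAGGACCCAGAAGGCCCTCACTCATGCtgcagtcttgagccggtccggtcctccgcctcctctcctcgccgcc

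These 5 promoters were of different kinds. The Sptb window had 65.7% GC with 21 CG pairs, and its 228 capital bases run from the upstream edge of the window. The Ifi47 window had 39.3% GC and 2 CG pairs, and its region covered the start and everything up to the downstream edge. The −log10 q of the peak summit, the authors' measure of how far a summit stands above the background of its own library, was 6.91 in WT 1 and 17.0 in WT 2 at Sptb. At Ifi47 it was 3.71 and 4.14, at Rnf217 3.71 and 7.24, at Zcchc3 3.51 and 6.26, and at Lrrc15 3.20 and 6.05. In all 5 the WT 2 summit was the higher one. No region of all 4 libraries stood within 1 kb of the Ifi47 start or the Rnf217 start. The nearest KO peak was 2762 bp from the WT-only region of Ifi47, whereas KO peaks lay 111 to 682 bp from those of the other 4.

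No searched motif was found in most of the promoters. Over the 38 windows that WT-only regions touched, median GC was 56.5%, against 61.8% over the 62 windows of KO-only regions and 53.0% over all windows. The AP-1 letters TGACTCA, searched on both strands, were in 4 of 38 windows (10.5%), 8.06% of KO-only windows and 5.22% of all windows; the 4 belonged to Lrrc15, where they lie in the capitals, Muc13, Guca2a and Oas3. The letters TGCTGAC, one arm of the Maf recognition site, was in 1 window, that of H4c11 (2.63%), against 6.45% of KO-only and 4.71% of all windows. The Sp1 letters GGGCGG were in 39.5%, 50% and 35.9% of the same sets and CCAAT in 26.3%, 30.6% and 37.6%. The ETS letters CCGGAAG, the TCF letters TTTGAAG and the E-box CACGTG were in 1 of the 38 windows each, against 8.92%, 5.19% and 7.20% of all windows. The RUNX letters TGTGGTT, the CRE letters TGACGTCA and the NRF1 motif were in 0 of 38, and in 5.29%, 1.80% and 0.978% of all windows. The Maf, AP-1 and CRE letters share the run TGAC, so their matches can overlap, and a match is one of letters, not a bound site.

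Most WT-only regions at gene ends were narrow and weak, with a small set of tall ones. Widths ran from 81 to 708 bp with a median of 150 bp, against 148 bp for the KO-only class and 390 bp where all 4 libraries had a peak. The −log10 q had a median of 3.45 in WT 1 (range 1.16 to 34.9) and 4.73 in WT 2 (range 1.05 to 85.1), where the lists ended at a q of 0.1. It was at least 5 in both lists for 58 regions, at least 10 for 16 and at least 20 for 4. WT 2 had the higher value in 250 of the 357 regions (70%). The summits of the 2 WT libraries stood a median of 30 bp apart, and within 50 bp of each other in 258 regions (72.3%). Across the 357 regions the −log10 q of WT 1 and WT 2 had a Spearman rank correlation of 0.40, a description over regions that share 2 libraries. The lowest values were those of Robo3 (1.16 in WT 1) and Rsph9 (1.05 in WT 2).

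The tallest regions lay at genes of varied function. Regions were ranked by the lower of their percentiles by −log10 q within WT 1 and within WT 2. The first stood 21 bp beyond the 3′ end of Uggt2, a glycoprotein folding sensor of the endoplasmic reticulum, at chr14:118981790-118981985, within 1 kb of the end of Dnajc3, an endoplasmic reticulum co-chaperone. Its −log10 q stood at 34.9 in WT 1 and 85.1 in WT 2, with summit pileups (overlapping reads) of 40 and 84 over local backgrounds of 2.01 and 3.07. The nearest KO peak was 703 bp away. Gsta3, a glutathione transferase, had its region 583 bp inside the 3′ end (chr1:21264701-21264992), with 27.9 in WT 1 and 68.6 in WT 2. Stradb, a pseudokinase that activates the kinase LKB1, had one 205 bp beyond its 3′ end (chr1:58995327-58995624), with 24.3 and 78.1 in WT 1 and WT 2. These 3 had the highest −log10 q of all 357 in both WT lists, and the nearest KO peak was 1924 bp from the region at Gsta3 and 1296 bp from that at Stradb.

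Next came an olfactory receptor gene and the gene for an inhibitor of ribonucleases, both near the end of chromosome 7. Olfr531 had a region 481 bp upstream of its start (chr7:140401525-140401748) whose −log10 q reached 21.6 in WT 1 and 62.4 in WT 2. Rnh1, the ribonuclease inhibitor, had one 708 bp upstream (chr7:141173559-141173800) with 19.8 and 45.5 in WT 1 and WT 2. Both pairs of summits agreed in place to within 5 bp. Ephx3, an epoxide hydrolase, followed with 16.6 in WT 1 and 52.9 in WT 2 at 383 bp beyond its 3′ end (chr17:32183027-32183387), 3737 bp from the nearest KO peak.

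The rest of the first 20 were again at genes of varied function. Smarcad1, a chromatin remodeller, had a 383 bp region 701 bp inside its 3′ end, 10839 bp from any KO peak, with 11.4 in WT 1 and 36.9 in WT 2. Cdc40, a splicing factor, had one 33 bp beyond its 3′ end with 12.4 and 14.9 in WT 1 and WT 2, and Tnpo3, the import receptor of splicing factors, one 314 bp beyond its 3′ end with 10.8 and 38.3. Mms22l, which acts in repair at replication forks, closed the set with 8.59 in WT 1 and 11.5 in WT 2, 382 bp inside the gene start. The others were at Maf (2 regions), Prcc (13.5 and 43.5 in WT 1 and WT 2), Tomm34 (11.6 and 21.5), Aldoc with Pigs (10.8 and 21.2), Tmem134 (10.2 and 14.3), 1700012B07Rik (10.1 and 18.5), Spef1l (9.88 and 31.2), Bpifc (9.28 and 16) and Slc22a8 (8.75 and 20.5). Tomm34 serves protein import into mitochondria, Aldoc is a glycolytic aldolase and Slc22a8 an organic anion transporter. WT 2 exceeded WT 1 in all 20, and KO peaks lay 75 bp (Slc22a8) to 10839 bp (Smarcad1) away.

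**Figure D1:**
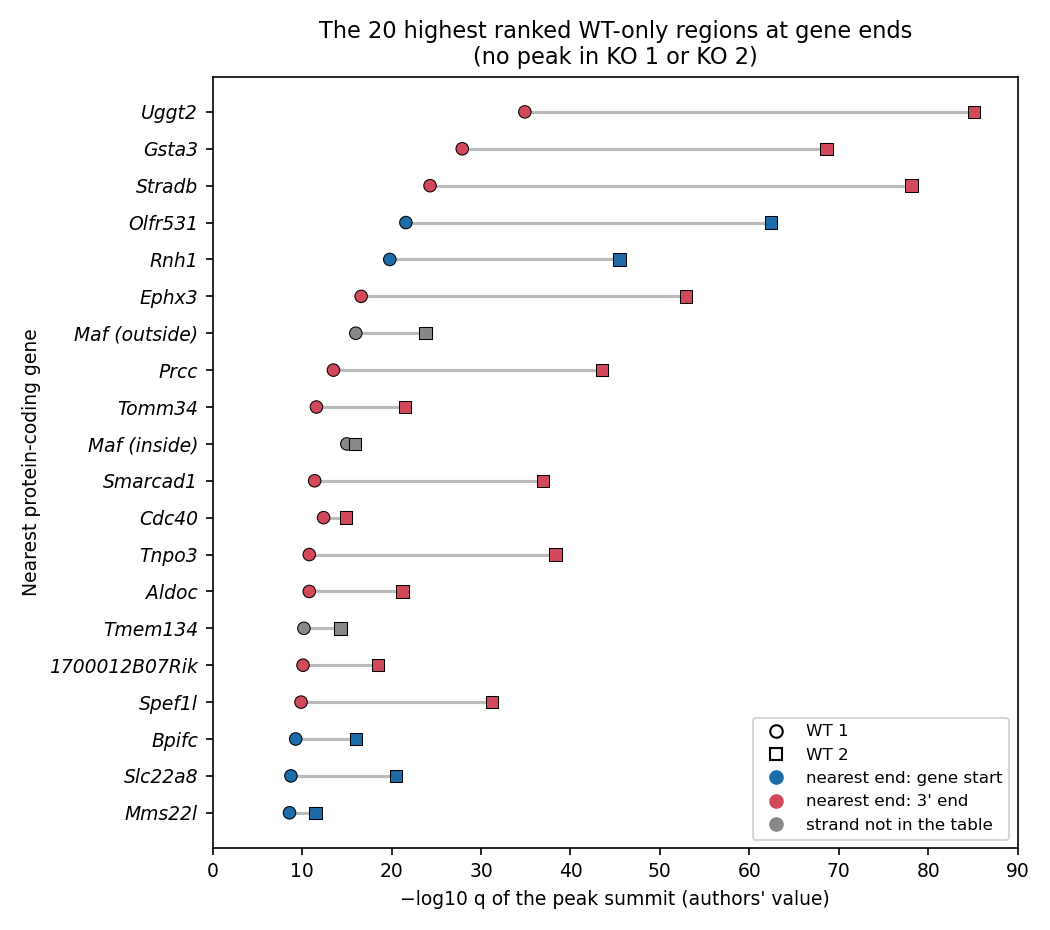
The 20 highest ranked WT-only regions at gene ends, by nearest protein-coding gene; the x axis is the −log10 q of the summit in WT 1 (circles) and WT 2 (squares), and colour gives the kind of end. WT 2 is right of WT 1 in every row, values run from 8.59 to 85.1, and 12 of the 20 regions are nearest a 3′ end.

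Maf, the targeted gene, was the only gene with 2 regions in the first 20, and its wider region was the widest of all 357. Maf lies at chr8:115703253-115706894, and the strand of this gene was not given in the tables used here. The 708 bp region at chr8:115706902-115707609 began 8 bp outside the gene, with summit pileups of 35 in WT 1 and 60 in WT 2 over local backgrounds of 4.90 and 10.2. The 154 bp region at chr8:115705837-115705990 lay inside, 904 bp from the same end, with pileups of 34 and 49 in WT 1 and WT 2. The local backgrounds here were several times those of the whole libraries, 1.571 in WT 1 and 1.378 in WT 2. The nearest KO peak lay 742 bp from the inner region and 862 bp from the outer one. A region of all 4 libraries stood 112 bp from the outer one. The floxed interval is not given in the labels, so missing KO peaks in these 2 regions cannot be told apart from deleted DNA. Leaving both regions out, a choice made after seeing the data, left 355 regions at 389 genes.

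The WT and KO lists did not reach equally far down. Background pileup was 0.877 and 0.758 in KO 1 and KO 2 and 1.571 and 1.378 in WT 1 and WT 2, computed from the deposited values. The smallest summit called was 5.70 and 6.60 times background in KO 1 and KO 2, and 4.46 and 4.35 times in WT 1 and WT 2. In 234 of the 357 WT-only regions (65.5%) both WT summits exceeded the limits of both KO libraries relative to background, and in 123 at least 1 WT summit did not. All of the first 20 were among the 234. Measured in this way the WT summits had a median of 7.64 times background in WT 1 (range 4.46 to 27.4) and 11.6 times in WT 2 (range 4.35 to 61.0). The KO limits come from peaks whose local background was that of the whole library, so they do not cover places of higher local background. The part that read depth played was not tested, in the 234 or in the other 123.

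**Figure D2:**
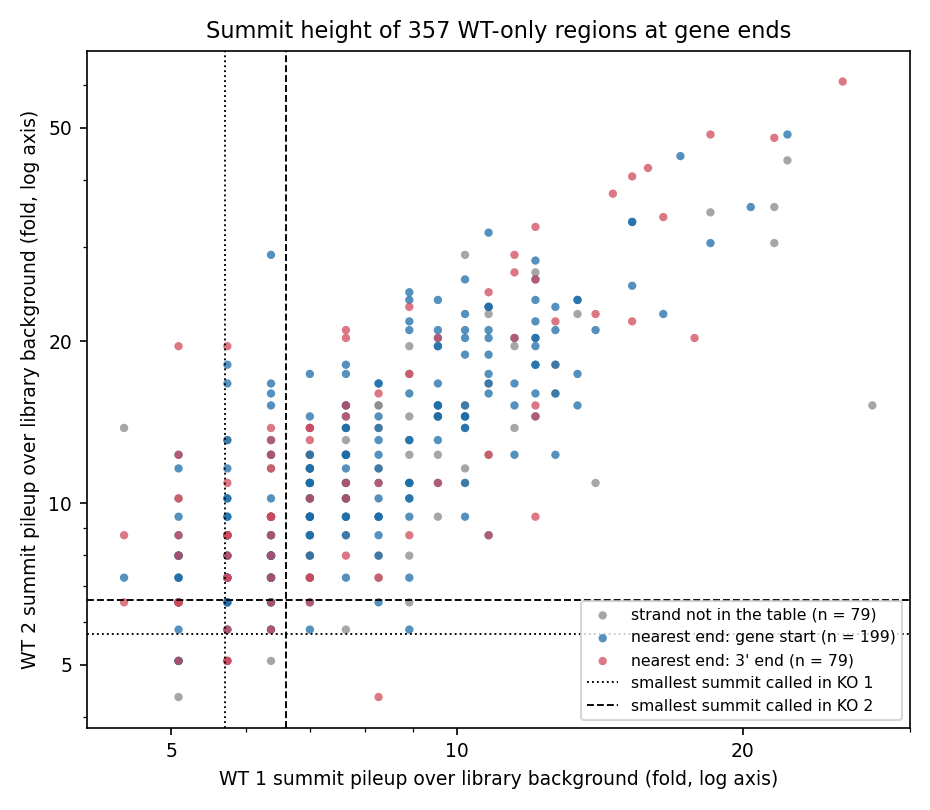
Summit pileup over the library background in WT 1 (x) and WT 2 (y) for the 357 WT-only regions at gene ends, both on log axes, coloured by the kind of end; lines mark the smallest summit called in KO 1 (5.70) and KO 2 (6.60). In 234 regions both WT values lie above both KO limits.

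Which genotype had more genotype-specific regions at gene ends depended on list length. The deposited lists gave 357 WT-only and 390 KO-only regions. With the 102718 highest ranked peaks of each library, they gave 426 WT-only (1.94%) and 276 KO-only. Of the 357 regions 186 were WT-only in both settings. Regions called in 1 KO and 1 WT library alone numbered 127 to 597 at gene ends, a range that holds both counts. At or above the median −log10 q of both of their lists stood 18 WT-only regions (0.0728% of regions at gene ends) and 2 KO-only regions (0.00809%), which lay at the starts of Klrc2, a natural killer cell receptor gene, and the predicted gene Gm46650.

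The tall WT-only regions lay mostly at 3′ ends, while the weak ones lay mostly at starts. Strand was known for 278 of the 357 regions, of which 199 were nearest a gene start (71.6%, exact 95% interval 65.9% to 76.8%) and 79 a 3′ end. KO-only regions had 70.5% at starts (64.9% to 75.6%) and regions of all 4 libraries 86.3% (85.7% to 86.9%), with intervals that cover counting error only. Of the first 20 WT-only regions 12 were nearest a 3′ end and 5 a start, against 67 at 3′ ends and 194 at starts among the other 337. The first 20 KO-only regions, ranked in the same way, had 2 at 3′ ends and 14 at starts. The 2 sets of 20 are not of like height. Only 2 KO-only regions stood at or above the median −log10 q of both of their lists, against 18 WT-only regions. Of the 79 WT-only regions at 3′ ends 5 had the start of any gene, coding or not, within 1 kb (6.33%), against 7.95% in the KO-only class and 10.3% for regions of all 4 libraries. Among the tall 12 the one with a start nearby was at Aldoc, where Pigs begins.

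WT-only regions stood beside the start rather than on it. Of all 357, 197 lay inside a gene (55.2%), 140 outside (39.2%) and 20 across the end position (5.60%). At starts, 6.53% of WT-only and 11.9% of KO-only regions covered the end position, and 63.5% of regions of all 4 libraries did. The rule sets part of this contrast, since a WT-only or KO-only region cannot cover a start that a region of all 4 libraries covers. Among WT-only regions at starts 13.6% had their midpoint 400 to 600 bp into the gene and 4.52% in the first 200 bp, where 28.9% of the regions of all 4 libraries had theirs. At 3′ ends 38 of the 79 lay inside the gene and 39 beyond it, with a median distance of 389 bp.

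**Figure D3:**
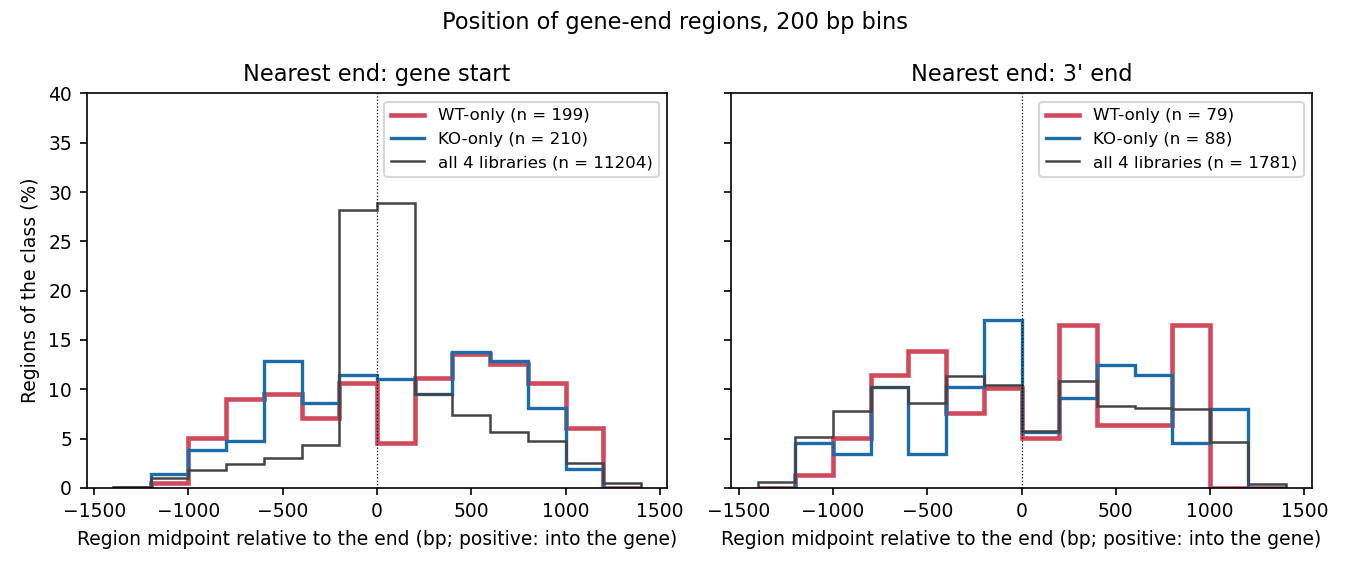
Midpoint of each region relative to the nearest gene start (left) or 3′ end (right) in bp, positive into the gene, as the percentage of each class per 200 bp bin. WT-only (red) and KO-only (blue) regions spread over both sides of the start, while 28.9% of the regions of all 4 libraries (grey) have their midpoint in the first 200 bp of the gene.

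Most of the regions at starts neighboured an accessible region that all 4 libraries shared. Within 1 kb of the same gene end, 221 of 357 WT-only regions (61.9%, exact 95% interval 56.6% to 67.0%) had such a neighbour, against 45.4% in the KO-only class (40.4% to 50.5%). These intervals cover counting error only, and the difference between the classes was not tested. Under other calling rules and distance limits that keep all 4 libraries, the WT-only share ran from 46.9% to 69.0%. A region of all 4 libraries needed another such region at its end to count, and 39.6% had one, so that share is not a like measure. At starts 75.4% of WT-only and 59.5% of KO-only regions had the neighbour, and at 3′ ends 22.8% and 20.5%. The gap to the neighbour had a median of 267 bp and went down to 33 bp. KO peaks were close as well, within 200 bp of 111 WT-only regions (31.1%) and within 1000 bp of 265 (74.2%). At 3′ ends 63.3% of WT-only regions (50 of 79) had no KO peak within 1000 bp, at starts 15.1% (30 of 199). Of the 390 marked genes 314 (80.5%) had a region of all 4 libraries at either end, against 87.4% of all genes with a region at an end.

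No pathway or cell type list held more than 2 genes with a WT-only region in the deposited lists. Over 20 lists of pathways and cell types, 15 of 429 genes with a region at an end had a WT-only region (3.50%, against 2.63% of all genes) and 11 a KO-only region (2.56%, against 2.81%). WT-only regions touched 13 of the 20 lists, with 1 or 2 genes each. With equal numbers of peaks per library the regions at Nkg7, Tbx21, Il27ra, Chek1, Vpreb3 and Rhd were not WT-only. In that setting the chromatin list had 5 WT-only genes and the T cell receptor list 3.

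**Figure D4:**
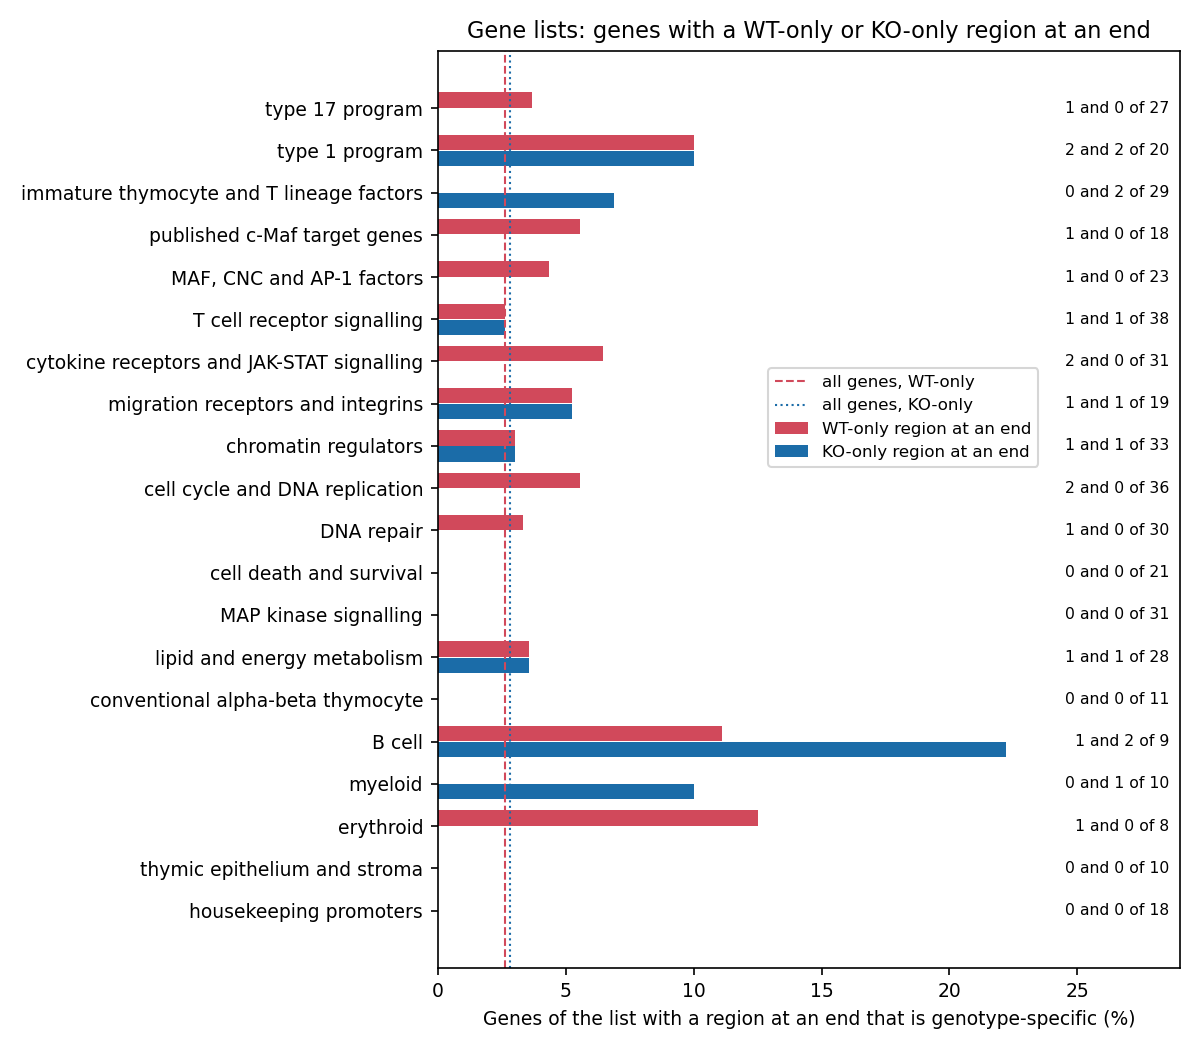
Percentage of each list's genes with a WT-only (red) or KO-only (blue) region at an end, among genes with any region there; the numbers at the right give WT-only and KO-only genes and the total, and vertical lines mark all genes (2.63% and 2.81%). Bars rest on at most 2 genes each.

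Of the type 17 program, the genes of IL-17-producing γδ T cells, 1 of 27 genes with a region at an end had a WT-only region (3.70%), and it was Maf itself. None was KO-only. Maf was also the 1 of 23 among MAF, CNC and AP-1 factors (4.35%). Il23r, Blk, Sox13 and Ccr6 were in the list and had no WT-only region within 1 kb of an end. Among published c-Maf target genes Lag3, an inhibitory receptor, was the 1 of 18 (5.56%). Its region of 114 bp covered the annotated end (chr6:124904264-124904377) where WT 1 gave a −log10 q of 2.93 and WT 2 one of 7.15, and stood 278 bp from a region of all 4 libraries.

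Genes of the type 1 program, which opposes the IL-17 fate, had WT-only regions at 2 of 20 and KO-only regions at 2 of 20 (10% each). The WT-only ones were Nkg7, a protein of cytotoxic granules, and Tbx21, which encodes T-bet, the master factor of interferon-γ production. At Nkg7 the region lay 254 bp from the 3′ end with 5.11 in WT 1 and 4.08 in WT 2. At Tbx21 it lay 543 bp from the start with 2.29 and 2.48 in WT 1 and WT 2, near the foot of both lists. The KO-only ones were Eomes and Hopx. With equal numbers of peaks per library, and with a −log10 q of at least 5, this list had 0 WT-only genes.

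Receptor and signalling genes were marked by single regions that ranged from tall at Fyn to weak at Il27ra. Il17ra, a subunit of the IL-17 receptor, and Il27ra, the IL-27 receptor, were the 2 of 31 genes of the cytokine receptor list (6.45%, KO-only 0). Il17ra had its region 956 bp from an end with 4.09 in WT 1 and 8.86 in WT 2, and Il27ra 738 bp from an end with 2.42 and 3.18. The T cell receptor list had 1 of 38 in either genotype (2.63%). Its WT-only gene was Fyn, a Src-family kinase, with a 248 bp region 23 bp from the 3′ end (chr10:39565404-39565651) and 7.07 in WT 1 and 18.3 in WT 2, the highest ranked of the list genes after Maf by the lower percentile. Its KO-only gene was Nfatc1. S1pr1, the receptor that guides exit from the thymus, was the 1 of 19 migration genes (5.26%), with 4.57 in WT 1 and 18.9 in WT 2 at 420 bp from an end.

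Cell cycle, repair, chromatin and metabolism lists held 5 further genes. Aurkb, a mitotic kinase (2.67 in WT 1 and 4.59 in WT 2), and Cdc6, which licenses replication origins (2.35 and 6.83), made 2 of 36 (5.56%, KO-only 0). Chek1, the checkpoint kinase, had 4.15 in WT 1 and 3.73 in WT 2 and was 1 of 30 repair genes (3.33%, KO-only 0). Chd4, the remodeller of the NuRD complex, with 2.58 in WT 1 and 5.42 in WT 2, was 1 of 33 chromatin regulators, where Dnmt1 was KO-only (3.03% each). Cpt1a, which carries fatty acids into mitochondria, with 2.84 in WT 1 and 10.1 in WT 2, was 1 of 28 metabolic genes, where Pkm was KO-only (3.57% each). All 5 had a KO peak within 1000 bp.

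Among the lists of other cell types, only the B cell list was marked in both genotypes. Vpreb3, a pre-B cell gene, was the 1 of 9 B cell genes with a WT-only region (11.1%) and also had a KO-only one, as had Cd22. Rhd, a red cell antigen gene, was the 1 of 8 erythroid genes (12.5%), with 2.68 in WT 1 and 4.36 in WT 2. Among 10 myeloid genes 0 were WT-only and Spi1 was KO-only. The immature thymocyte and T lineage list had 0 of 29 WT-only, while Ets1 and Thy1 were KO-only (6.90%). That list had 2 WT-only genes with a −log10 q of at least 5, and 1 when peaks had to cover at least 0.5 of a region. Lists of cell death (21 genes), MAP kinases (31), αβ thymocytes (11), thymic epithelium and stroma (10) and housekeeping promoters (18) had 0 in either genotype. These zeros hold for the deposited lists. With equal numbers of peaks per library the MAP kinase and housekeeping lists had 2 WT-only genes each.

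Grouped by symbol, solute carriers and the ubiquitin system had more WT-only than KO-only genes, though on small counts. Of all genes with a region at an end, 2.63% had a WT-only and 2.81% a KO-only region. Of 279 solute carrier genes with a region at an end 10 had a WT-only region (3.58%) and 6 a KO-only one (2.15%). They included Slc7a5, a large neutral amino acid transporter, with 5.68 in WT 1 and 5.93 in WT 2. Of 262 ubiquitin genes 11 were WT-only (4.20%) and 6 KO-only (2.29%). The order ran the other way for zinc fingers, with 3 of 404 WT-only (0.743%) and 8 KO-only (1.98%), for Tmem genes, with 1 and 4 of 200 (0.5% and 2%), and for predicted genes, with 13 and 34 of 645 (2.02% and 5.27%). Olfactory, vomeronasal and taste receptor genes had 3 of 70 WT-only (4.29%) and 2 KO-only, histones 2 of 84 (2.38%) and 1, proteasome genes 2 of 47 (4.26%) and 2, and Hox genes 1 of 26 (3.85%) and 1. Rpl39 was the 1 of 91 ribosomal protein genes (1.10%). No WT-only region lay at the 77 mitochondrial ribosomal, 66 translation factor, 83 motor protein or 14 keratin genes. These differences were not tested, and with lists of equal length the WT-only total exceeded the KO-only total.

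Pairs of WT-only regions occurred at 6 genes, Maf, Olfr531, Ubn2, Prep, LOC100504180 and Hcfc2. The pair at Olfr531 had 21.6 and 62.4 in WT 1 and WT 2 upstream and 2.81 and 16.2 at 10 bp from the start. Ubn2, a histone chaperone subunit, had them on both sides of its start, with 5.49 in WT 1 and 7.74 in WT 2 outside and 2.38 and 9.04 inside. LOC100504180 had the one region of the 6 pairs far taller in WT 1, 11.6 there against 3.58 in WT 2. At Hcfc2 and Prep no value passed 5.65. A KO-only region accompanied the WT-only one at 9 genes, Wdr7, Rnh1, Fjx1, Vpreb3, Gbx1, Garem2, 3110082J24Rik, Mfap5 and Zcchc3.

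The 10 widest WT-only regions overlapped the tall set in 5 regions. They were at Maf (708 bp), Slc22a8 (534 bp), Snx9 (453 bp), Prcc (443 bp), Prss50 (419 bp), Spef1l (391 bp), Bmpr2 (388 bp), Smarcad1 (383 bp), Rtkn (373 bp) and Olfr1358 (365 bp). Snx9, a membrane remodelling protein of endocytosis, and Bmpr2, a receptor of bone morphogenetic proteins, were wide without being among the first 20, with 6.28 in WT 1 and 4.08 in WT 2 at Snx9 and 2.37 and 3.87 at Bmpr2. They stood 33 and 75 bp from a region of all 4 libraries. Widths are those of merged peaks, not of a single peak in each library. When peaks had to cover at least 0.5 of a region, those at Snx9, Prss50 and Olfr1358 were not WT-only.

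WT-only regions were found on every chromosome, from 0.708% of the regions at gene ends on chromosome 17 to 2.17% on chromosome 5. Chromosome 8, which carries Maf, had 26 WT-only and 12 KO-only of 1309 (1.99% and 0.917%), and within 10 Mb of Maf there were 8 WT-only, including the 2 at Maf itself, and 2 KO-only of 331 (2.42% WT-only). Within 5 Mb there were 3 WT-only and 1 KO-only of 122, and within 20 Mb 8 WT-only and 3 KO-only of 429 (1.86% WT-only). In windows of 2 Mb, 4 or more WT-only regions were found in 2, at 122 to 124 Mb of chromosome 5 (4 of 76) and at 140 to 142 Mb of chromosome 7 (5 of 105), which holds Olfr531, Rnh1 and Olfr524.

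The limit of 1 kb cut through a continuous spread. Just inside it were regions at Rras2 (975 bp; 6.37 in WT 1 and 2.64 in WT 2), Snx2 (975 bp; 8.21 and 21.0) and Exog (990 bp; 4.87 and 8.60). Just outside were regions at Duoxa2 (1002 bp; 7.87 and 5.15), Abat (1007 bp; 9.28 and 10.4) and Ptpn12 (1015 bp; 3.70 and 2.73). Heights on the 2 sides overlapped.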

How the data were processed

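Omni-ATAC peaks of 4 libraries, 2 Maf KO and 2 Maf WT, were analysed. Per the submitters' processing notes, which give no roles, MACS2 2.1.1, Bowtie2 2.3.4.1 and deepTools 3.1.2 were used besides Picard, cutadapt, Trim Galore and bedtools, on GRCm38 (mm10). Read shift, duplicate handling and peak settings were not given in the sources used here. From the authors came, as deposited, 1 list of peaks per library with a whole-number score, a fold enrichment over local background (a linear ratio), and a −log10 p and −log10 q per summit, all relative to the same library and here used to describe and rank its own peaks. Read depth is described by background pileup. Summit and background pileup were solved from the deposited fold and −log10 p with a Poisson tail as in MACS2, and 99.978% to 99.996% of the peaks of a library gave a whole-number summit that returned the deposited −log10 p to within 0.002.

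Peaks were merged, called and assigned to gene ends in Python 3.11.15 with pandas 2.3.3, tested on 800 simulated peaks. The RefSeq gene table gives gene ends without strand. Strand came from the RefSeq promoter table for 17274 of 21631 protein-coding genes, so that "end" is used where it is missing, and promoter windows on chromosome 18 were not used. Exon and intron positions are not given. Sequences are from RefSeq, GRCm38.p6, and other accessible sequences were not used here. Positions are 1-based. Shares have exact Clopper-Pearson 95% intervals. No p-value was computed, since the rule used the KO and WT contrast and regions are not replicates. Genes named are the 20 highest ranked, those in the gene lists, those with 2 or more regions, the 10 widest and the 3 on each side of the 1 kb limit, and others named were chosen after their values were seen. The regions and lists were chosen with earlier results of these data known.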

Additional observations from a re-analysis of the deposited data

How the results depend on the processing

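Counts moved with the calling rule. Requiring a −log10 q of at least 5 gave 203 WT-only regions at 220 genes (1.02% of regions), 54.2% of them beside a region of all 4 libraries. Of the 357 regions 58 were found again in that setting, so the 203 are not a subset of the 357. Requiring peaks to cover at least 0.5 of a region gave 1.77% and 56.3%, equal numbers of peaks 1.94%, and no peak of the other genotype within 200 bp 0.999%, 50.2% beside a shared region and 63.5% at starts. These 3 settings found 293, 186 and 247 of the 357 regions again. A limit of 500 bp gave 196 regions, 208 genes, 1.09%, 244 KO-only regions, 46.9% beside a shared region and 9 list genes, and a limit of 2 kb gave 580, 630, 1.74%, 615, 69.0% and 27. Keeping regions over the KO limits in both WT lists, chosen after seeing the data, gave 234. Leaving out a library in turn gave 756 to 1706 WT-only regions, 831 to 1767 genes, 3.1% to 7.06% of regions, 576 to 1865 KO-only regions, 57.2% to 67.4% beside a shared region, 70.7% to 80.6% at starts, median widths of 89 to 154 bp and 31 to 49 list genes; the larger counts follow from fewer lists deciding the call. Of 107 values compared 60 were kept and 47 moved, and of 273 list counts 175 and 98. All of the first 20 regions were found again except 6 at 500 bp and 2 with no KO peak within 200 bp, and 23 of the 357 were found under all 9 alternatives that keep the 4 libraries. No paired analysis was possible because no test was fitted, although the labels number the libraries of both genotypes 1 and 2. For the 123 regions with a WT summit under a KO limit relative to background, the part of read depth was not tested. Nor was it tested for the 234 over the limits.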

Other observations

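Genes of antigen processing and of the interferon response stood among the marked genes; they were chosen after their values were seen and form no list that was counted. Psmb9 and Tap1, which make and transport peptides for MHC class I, share a start region and had 1 WT-only region 218 bp inside a start (chr17:34186981-34187112), where −log10 q reached 5.47 in WT 1 and 4.38 in WT 2. Erap1, which trims such peptides, had 3.81 in WT 1 and 2.83 in WT 2 at 644 bp inside its start. Irf1, an interferon-induced factor, had 4.45 in WT 1 and 7.61 in WT 2, Ddx60, an antiviral helicase, 4.56 and 6.23, and Oas3, an antiviral synthetase, 1.94 and 4.20. The nearest KO peak was 1321 bp from the region of Oas3, while those of Psmb9 and Erap1 stood 101 and 120 bp from a KO peak. With equal numbers of peaks per library the regions at Psmb9, Erap1 and Oas3 were not WT-only, while those at Irf1 and Ddx60 were.

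Regulators of growth and cytokines were marked singly as well. Foxo1, a factor that keeps T cells quiescent, had 5.85 in WT 1 and 5.98 in WT 2 at 944 bp inside its start. Akt1, the kinase that acts on Foxo1, had 3.96 in WT 1 and 7.54 in WT 2 at 260 bp upstream. Osm, a cytokine of the IL-6 family, had 6.03 in WT 1 and 8.14 in WT 2 at 50 bp from an end. All 3 had a region of all 4 libraries within 1 kb of the same end, at gaps of 770, 125 and 301 bp.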
